A study of Mus musculus with 36 samples.

Results

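The H19, Igf2 and Kcnq1ot1 imprinted domains lie side by side on distal mouse chromosome 7, and 6 of their genes were followed here, out of 49943 annotated genes: H19, Igf2, Kcnq1, Kcnq1ot1, Cdkn1c and Phlda2. The genes were taken by name. All deposited HA peaks over each gene or within 10 kb of it were collected, with the stretch upstream of H19 and the start of Kcnq1ot1 described as places of their own. The study asked where HA-tagged histone H4 is incorporated in mouse embryonic stem cells. The lines were PiggyBac lines that stably expressed an empty vector, H4WT with a 3HA tag, H4K91R with a 3HA tag (a lysine of the histone core replaced by arginine) or H4K91Q with a 3HA tag (the same lysine replaced by glutamine), in otherwise parental cells with their own histone genes in place. Chromatin was pulled down on anti-HA beads, so the empty-vector line shows what the beads recover without a tagged histone. There was 1 library per group, no fold or count below has a replicate check, and no test between libraries was made. The other 32 of the 36 samples were not analysed here.

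In imprinted domains the copy of a gene from either the mother or the father is silenced. H19, a non-coding RNA that is the host of the microRNA gene Mir675, is expressed from the maternal chromosome, and Igf2, which encodes a fetal growth factor, from the paternal one. The choice is set by a control region upstream of H19 that is methylated on the paternal copy and bound by the insulator protein CTCF on the maternal copy. In the neighbouring domain the control region holds the start of Kcnq1ot1, a long non-coding RNA transcribed from the paternal copy against the direction of Kcnq1, which encodes a potassium channel subunit. Kcnq1ot1 silences genes around it on that copy, among them Cdkn1c, which encodes a cyclin-dependent kinase inhibitor, and Phlda2, a gene that restrains placental growth. The peak lists do not separate the parental copies.

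The promoters of the members give the local sequence at their starts. RefSeq promoter windows of 300 bases (250 before a start and 50 after it, GRCm38.p6, the same build as mm10) were found for 3 members: Igf2 with 4 starts, Kcnq1ot1 with 1 and Phlda2 with 1. The 3 sequences below are shown because they overlap peaks of different lists: Kcnq1ot1 those of all 3 tagged lists, the second Igf2 start those of H4WT and H4K91R, and Phlda2 a peak of H4WT alone. Peaks cover the Kcnq1ot1 and second Igf2 windows only in part, so not every marked base lies under a peak of each list. All are on the minus strand and are printed 5′ to 3′. Kcnq1ot1 is chr7:143296498-143296797, the second Igf2 start chr7:142661222-142661521 and Phlda2 chr7:143502475-143502774. Capitals mark matches, on either strand, to the CCAAT box (CCAAT), the TATA box (TATAAA) and the motif of the imprint-protecting zinc finger protein ZFP57 (TGCCGC, here on the other strand as GCGGCA).
Kcnq1ot1: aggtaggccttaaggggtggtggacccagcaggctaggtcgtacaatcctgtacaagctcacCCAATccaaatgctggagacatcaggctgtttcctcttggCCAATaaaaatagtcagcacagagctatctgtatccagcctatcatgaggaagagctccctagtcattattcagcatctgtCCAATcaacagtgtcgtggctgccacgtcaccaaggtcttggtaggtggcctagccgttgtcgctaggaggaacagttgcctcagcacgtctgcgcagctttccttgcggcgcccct
Igf2 second start: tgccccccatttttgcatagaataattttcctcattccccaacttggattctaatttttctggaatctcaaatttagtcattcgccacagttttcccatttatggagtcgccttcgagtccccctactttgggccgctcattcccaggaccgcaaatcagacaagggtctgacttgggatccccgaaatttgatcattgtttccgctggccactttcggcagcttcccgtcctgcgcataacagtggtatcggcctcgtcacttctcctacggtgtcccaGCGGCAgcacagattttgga
Phlda2: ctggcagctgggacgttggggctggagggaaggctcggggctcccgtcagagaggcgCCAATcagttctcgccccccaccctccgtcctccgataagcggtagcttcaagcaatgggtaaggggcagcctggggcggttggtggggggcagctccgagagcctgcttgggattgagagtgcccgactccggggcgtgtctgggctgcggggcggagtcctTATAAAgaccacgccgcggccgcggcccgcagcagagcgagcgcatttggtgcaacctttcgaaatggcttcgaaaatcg
The Kcnq1ot1 window holds 3 CCAAT boxes, whose first bases lie at -188, -148 and -67 from the start. Of 32851 promoter windows, 37.4% hold at least 1 CCAAT box and 3.37% hold 3 or more. Phlda2 has 1 CCAAT box and a TATAAA at -30, a motif in 13.6% of windows. The second Igf2 start has 1 ZFP57 match, which 11.6% of windows hold. CpG dinucleotides number 9 at Kcnq1ot1, 14 at the second Igf2 start and 26 at Phlda2, beside a median of 7 over all windows. These matches are a description of the letters and not of binding.

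The deposited H4WT list held 69158 peaks, the H4K91R list 49155, the H4K91Q list 14314 and the empty-vector list 3007. They give no read numbers, so depth is unknown and a place without a peak is a place that did not pass the authors' caller. Fold is the authors' enrichment over background at a peak's summit, and it is used only to rank peaks within 1 list. Over the joined windows of the 6 genes, 443.162 kb in all, 3 empty-vector, 49 H4WT, 39 H4K91R and 8 H4K91Q peaks were found. Per 100 kb this was 0.677, 11.1, 8.80 and 1.81 peaks in the same order, and the joined windows of all genes had 0.151, 3.70, 2.38 and 0.495. Each list was thus denser over the members than over annotated genes in general. The empty-vector, H4WT and H4K91R lists were also denser over the neighbouring genes described below, so this was not particular to the members. With the H4WT and H4K91R lists reduced to their 14314 peaks of highest −log10 q, the length of the H4K91Q list, the members held 9 H4WT and 16 H4K91R peaks, which turned the order of those lists. H4WT then had a peak at 4 members, no longer at H19 or Phlda2, and H4K91R still at 5. The share of all genes was not counted in the cut lists, here or below. Whether the turned order is particular to the members was therefore not tested. H4WT member peaks had a median fold of 6.09, beside 5.70 in the whole list. The medians were 5.91 beside 5.28 for H4K91R, and 4.99 beside 5.13 for H4K91Q.

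All 6 members had an H4WT peak over the gene or within 10 kb, as did 55.5% of all genes. For H4K91R it was 5 members, all but Phlda2, beside 47.3% of genes. For H4K91Q it was 4 members (H19, Igf2, Kcnq1 and Kcnq1ot1) beside 10.9% of genes. Kcnq1 and Kcnq1ot1 were called by the same 2 H4K91Q peaks, so they do not count as separate places. The Kcnq1 window was 340.174 kb long, and the shares of all genes were not matched for length. The empty vector had a peak at 2 members, Igf2 and Kcnq1, beside 6.75%. Within 1 kb of a gene start (of both gene ends where the tables give no start), H4WT had peaks at all 6 members, with 35.0% of all genes so called, and H4K91R at 5 members, with 22.1%. H4K91Q had such peaks at 3 members, H19, Igf2 and Kcnq1ot1, with 1.25% of genes called. No member had an empty-vector peak there, with 0.785% of genes called. Within 500 bp, H4K91Q had a peak at 1 member only, and the share of all genes was not counted at that distance.

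**Figure D1:**
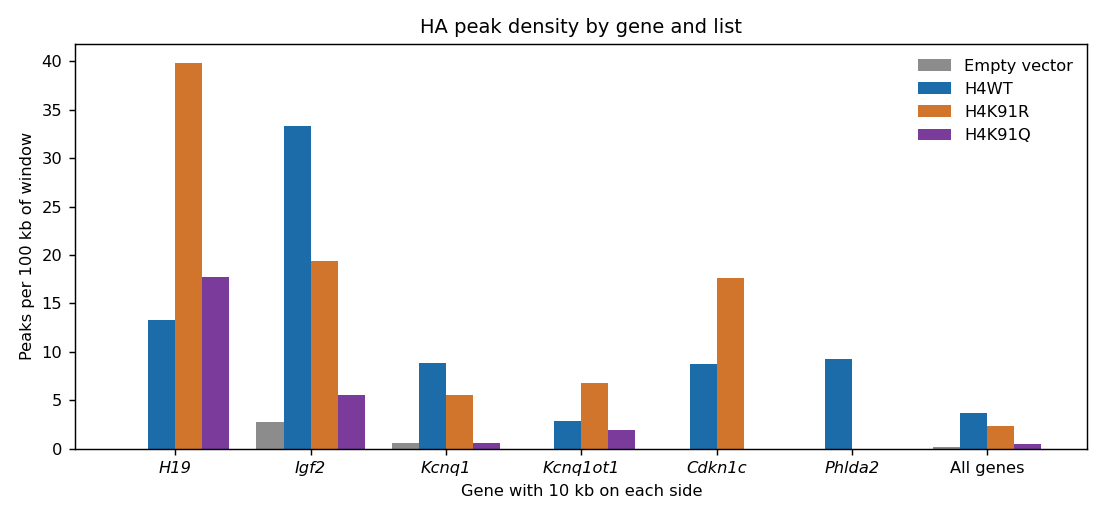
HA peaks per 100 kb over each gene with 10 kb on each side, in the empty-vector, H4WT, H4K91R and H4K91Q lists, with the joined windows of all genes at the right. H19 was densest for H4K91R (39.8) and H4K91Q (17.7), Igf2 was densest for H4WT (33.3), and Phlda2 had H4WT peaks only.

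H19 (lncRNA, gene ID 14955, chr7:142575530-142578146, minus strand as read from the Mir675 hairpin inside it) had 0 empty-vector, 3 H4WT, 9 H4K91R and 4 H4K91Q peaks in its window. With all deposited peaks it was the member where both mutants had more peaks than H4WT. That excess was gone among peaks of −log10 q of 5 or more, where each of the 3 tagged lists had 3. With lists of equal length it was 0 H4WT, 3 H4K91R and 4 H4K91Q peaks. All 4 H4K91Q peaks lay upstream of the gene, where the control region lies. Of the 9 H4K91R peaks, 5 reached into the 10 kb upstream, 3 lay in the 10 kb downstream and 2 overlapped the gene. An H4K91R peak across the start is counted both upstream and over the gene. Between 1 and 5 kb upstream of the H19 start (chr7:142579146-142583146), the lists held 0 empty-vector, 0 H4WT, 3 H4K91R and 4 H4K91Q peaks. H4K91R peaks covered 57.3% of that stretch and H4K91Q peaks 66.1%. Over 32851 annotated starts, the same window held an H4WT peak at 16.7%, an H4K91R peak at 10.9%, an H4K91Q peak at 1.46% and an empty-vector peak at 0.691%. A peak of both mutants with none of H4WT occurred at 0.639% of starts.

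The H4K91R peaks upstream of H19 were chr7:142579251-142579656 with a fold of 5.06, chr7:142579845-142581404 with 11.1 and chr7:142581775-142582101 with 9.43. The middle one was 1560 bp wide and ranked 1366 by fold in its list (top 2.78%), and the upper one ranked 2474 (top 5.03%). The first one ranked 30198 (top 61.4%). The H4K91Q peaks were chr7:142579090-142579517 with a fold of 4.47, chr7:142579890-142581507 with 6.63, chr7:142581722-142582105 with 4.91 and chr7:142582261-142582531 with 4.45. The wide one, 1618 bp, ranked 2665 (top 18.6%) and had the highest fold of all 8 H4K91Q member peaks. The others ranked 10215, 8112 and 10236 (top 71.4%, 56.7% and 71.5%), with folds below the list median of 5.13. Both mutants therefore had a wide peak in the middle with narrower peaks on its sides. The wide peaks overlapped by 1515 bp, which is 97.1% of the H4K91R peak and 93.6% of the H4K91Q peak. Their lower edges were 45 bp and their upper edges 103 bp apart, while their summits were 519 bp apart. The next peaks upstream ended 4 bp apart, and all of the H4K91R one lay inside the H4K91Q one.

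H4WT peaks stood on both sides of this 3.442 kb block and not in it. The nearest H4WT peak below ended 750 bp away, and the nearest above began 6038 bp away at chr7:142588569-142588757. The H4WT list left 10.228 kb free around the block, and the empty-vector list 84.417 kb. Over the members H4WT had 11.1 and the empty vector 0.677 peaks per 100 kb. How often free stretches of these lengths occur in each list was not counted, so the gaps alone do not set the block apart. With only peaks of −log10 q of 5 or more, and with lists of equal length, 2 H4K91R peaks stayed in the stretch. These settings only remove peaks, so they could not add an H4WT peak there. H4K91Q kept 3 peaks at that q, and its list is not cut in the equal-length setting, so its 4 peaks stay there by construction. H4WT had 1 peak at 0 to 10 kb upstream, at chr7:142578147-142578340 with a fold of 5.28, with its summit 100 bp upstream of the start.

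**Figure D2:**
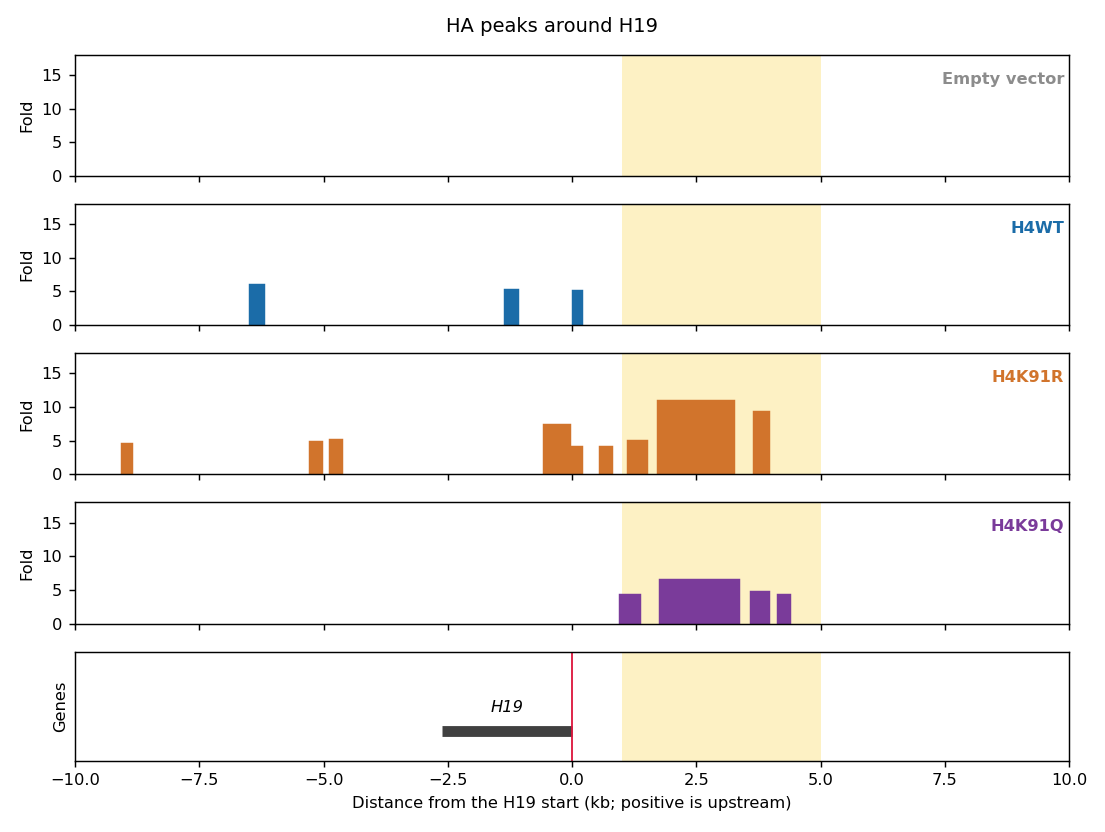
Peaks around H19 in each list, drawn from edge to edge with the authors' fold as height, by distance from the H19 start in kb with upstream to the right. The shaded stretch, 1 to 5 kb upstream, holds 3 H4K91R and 4 H4K91Q peaks and no H4WT or empty-vector peak. Folds are comparable within a list only.

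Within 1 kb of the H19 start, H4WT peaks covered 9.70%, H4K91R peaks 51.2% and H4K91Q peaks 2.85% of the window. The H4K91Q share was the edge of its lowest upstream peak, 57 bp, so that list had no peak at the start itself. The H4K91R peak of highest fold there, chr7:142577564-142578100, lay in the gene and had a fold of 7.53 (rank 5650). The other H4K91R peaks there, chr7:142578127-142578351 and chr7:142578686-142578947, both had a fold of 4.25. H4WT had 1 peak in the gene, chr7:142576784-142577057 with a fold of 5.38, which ended 7 bp from the Mir675 hairpin (chr7:142577064-142577147). The nearest H4K91R peak was 417 bp and the nearest H4K91Q peak 1943 bp from the hairpin. In the 10 kb downstream of the gene there were 1 H4WT, 3 H4K91R and 0 H4K91Q peaks, with folds of 6.08 for H4WT and 4.69 to 5.21 for H4K91R.

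Igf2 (gene ID 16002, chr7:142650768-142666816, minus strand) had 1 empty-vector, 12 H4WT, 7 H4K91R and 2 H4K91Q peaks. Here the order followed the list lengths, unlike at H19, and with lists of equal length it was 3, 3 and 2 for the tagged histones. H4WT peaks covered 14.6%, H4K91R peaks 9.40% and H4K91Q peaks 2.32% of the window. The empty-vector peak, chr7:142649440-142649616 with a fold of 5.12, overlapped no tagged peak. The second start, at 142661271, held the H4WT peak of highest fold of all 49 member peaks, chr7:142660563-142661413 with a fold of 12.8 (rank 556, top 0.804%). A smaller H4WT peak, chr7:142660033-142660306 with 6.09, also reached within 1 kb of this start. H4K91R had chr7:142660571-142661286 there with a fold of 7.56 (rank 5391), and H4K91Q had no peak within 1 kb. H4WT and H4K91R also had peaks within 1 kb of the third start (142658804) and of the most downstream one (142657496). H4WT folds were 6.09 and 7.09 at the third and 6.42 and 7.09 at the most downstream start, whose windows share a peak. H4K91R folds were 6.20 and 6.22 at the third and 5.81 at the most downstream start, and H4K91Q had no peak at either.

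All 3 tagged lists met upstream of Igf2, between the gene and Ins2, the insulin gene beside it. The place nearer the gene was chr7:142667502-142668226 for H4WT (fold 12.7, rank 579), chr7:142667497-142668167 for H4K91R (fold 8.89, rank 3010) and chr7:142667685-142668177 for H4K91Q (fold 4.92, rank 8082). It was the highest H4K91R fold at Igf2. The place farther out had H4WT peaks of folds 6.20 and 4.75, chr7:142669699-142670390 for H4K91R (fold 8.53, rank 3291) and chr7:142669929-142670273 for H4K91Q (fold 5.13, rank 7119). H4K91Q had its 2 Igf2 peaks at these places and no peak over the gene. A further H4WT peak of high fold lay in the gene, chr7:142663885-142664302 with 10.7 (rank 2301), and H4K91R had chr7:142663897-142664295 with 5.81 at the same place.

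**Figure D3:**
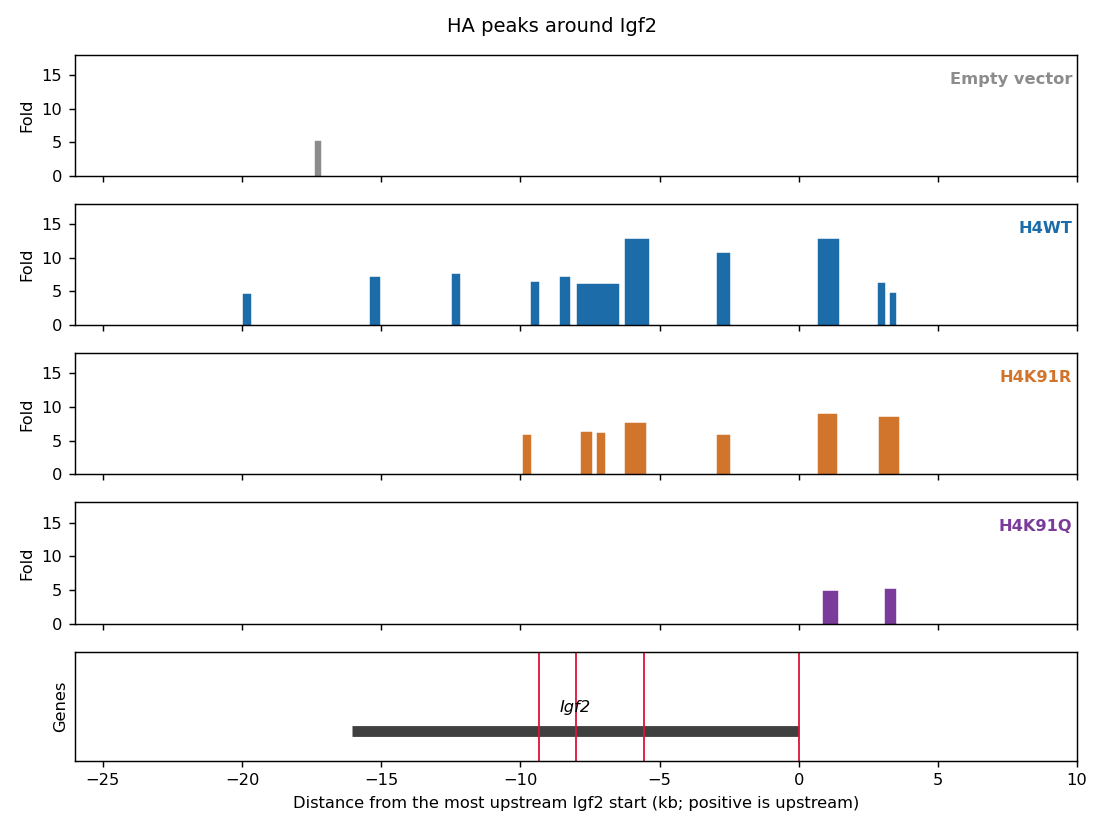
Peaks around Igf2 in each list with the authors' fold as height, by distance from the most upstream Igf2 start in kb. Red lines in the bottom row mark the 4 starts of the promoter table. H4K91Q has 2 peaks, both upstream of the gene and both at places where H4WT and H4K91R have peaks too.

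Kcnq1ot1 (gene ID 63830, chr7:143213111-143296547, minus strand, inside Kcnq1) had 0 empty-vector, 3 H4WT, 7 H4K91R and 2 H4K91Q peaks. In lists of equal length it was 1, 4 and 2 for the tagged histones. Its start, at 143296547, was marked in all 3 tagged lists. Within 2 kb on each side (chr7:143294547-143298547) there were 2 H4WT, 2 H4K91R and 1 H4K91Q peaks and no empty-vector peak. They covered 36.6%, 47.0% and 42.6% of the window. Over all annotated starts the same window held an H4WT peak at 47.7%, an H4K91R peak at 30.4%, an H4K91Q peak at 1.16% and an empty-vector peak at 1.08%. Peaks of all 3 tagged lists occurred at 0.654% of starts.

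The H4WT peaks at the Kcnq1ot1 start were chr7:143295111-143295852 with a fold of 10.4 (rank 2854, top 4.13%) and chr7:143295949-143296669 with 7.86 (rank 12217). H4K91R had 1 wide peak over the same bases, chr7:143295055-143296693 with a fold of 16.1. That was the highest fold of its 39 member peaks (rank 421, top 0.856%). A small H4K91R peak, chr7:143296831-143297070 with 5.08, lay upstream of the start. The third H4WT peak of the window, chr7:143305779-143306205 with 6.47, lay outside Kcnq1ot1 upstream of it. H4K91Q also had 1 wide peak, chr7:143295044-143296746 with 5.28 (rank 6429, top 44.9%). The wide peaks of the mutants were 1639 and 1703 bp, began 11 bp apart and ended 53 bp apart. All of the H4K91R peak and both H4WT peaks lay inside the H4K91Q peak. The summits differed more: H4K91R peaked 1054 bp from H4K91Q, and the second H4WT peak 1 bp from it. Most of each wide peak lay downstream of the start, and in all 3 lists a peak overlapped the promoter printed above.

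**Figure D4:**
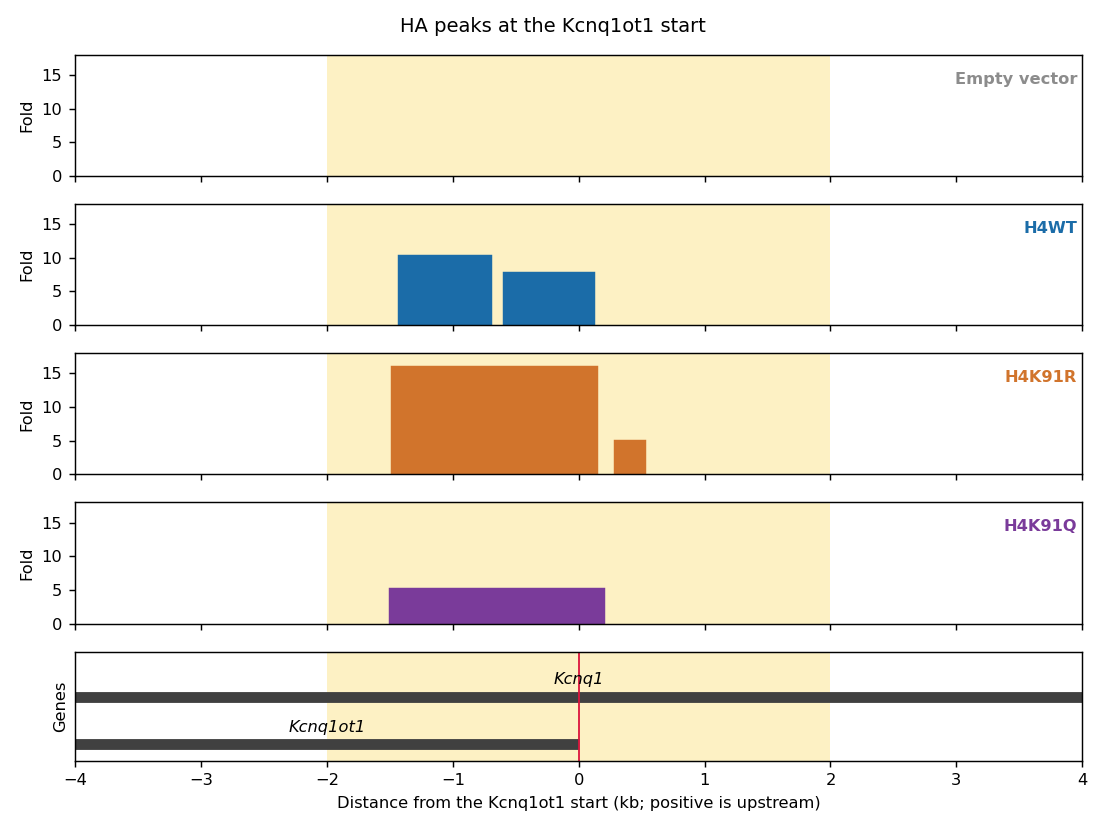
Peaks around the Kcnq1ot1 start in each list with the authors' fold as height, by distance from the start in kb with upstream to the right. The shaded window, 2 kb on each side, holds 2 H4WT peaks, a wide H4K91R peak and a wide H4K91Q peak over nearly the same bases, a small H4K91R peak upstream of them, and no empty-vector peak.

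Beyond 2 kb from its start, the Kcnq1ot1 gene (81.436 kb) held no H4WT and no empty-vector peak, with 5 H4K91R and 1 H4K91Q peaks. These 6 peaks were close together, 66.84 to 72.22 kb downstream of the start by summit. The highest H4K91R fold among them was 9.64 at chr7:143229026-143229398 (rank 2181, top 4.44%), followed by 8.33 at chr7:143224992-143225485 and 8.30 at chr7:143225556-143225915. The H4K91Q peak, chr7:143225640-143225992 with 5.06, overlapped the last of these. With equal-length lists 3 of the H4K91R peaks, and at a −log10 q of 5 or more 4 of them, stayed. Neither setting could add an H4WT peak. This window was set after the data had been seen, and the share of other genes with peaks so placed was not counted.

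Kcnq1 (gene ID 16535, chr7:143106877-143427050) had 2 empty-vector, 30 H4WT, 19 H4K91R and 2 H4K91Q peaks, and both H4K91Q peaks were the ones in Kcnq1ot1. With lists of equal length the order of the others turned, to 4 H4WT and 8 H4K91R peaks. In the 106.234 kb of Kcnq1 below the end of Kcnq1ot1 there were 14 H4WT, 6 H4K91R and 0 H4K91Q peaks. In the 128.503 kb more than 2 kb above the Kcnq1ot1 start there were 12, 5 and 0. H4WT peaks were thus spread over both flanks of Kcnq1ot1 and missing from most of it. H4K91R peaks were missing from most of it too, apart from the start and the cluster toward its far end. The longest stretch of Kcnq1 without an H4WT peak, chr7:143198225-143295110, was 96.886 kb and ended at the Kcnq1ot1 start peaks. Its counterpart for H4K91R was 65.212 kb. How often other genes hold stretches of such length without a peak was not counted.

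The highest H4WT fold at Kcnq1 was 11.7 at the lower end of the gene, chr7:143106853-143107742 (rank 1239, top 1.79%). H4K91R had chr7:143107117-143107362 there with 5.95 (rank 15546), and H4K91Q had no peak. At the upper end H4K91R had a peak within 1 kb, chr7:143427185-143427399 with a fold of 4.55, and the nearest H4WT peak above the gene was chr7:143428100-143428935 with 8.46. Tagged peaks overlapped an empty-vector peak at 2 places of Kcnq1. At chr7:143159628-143159791 the empty-vector fold was 6.55 (rank 277), with an H4WT peak of 8.15 and an H4K91R peak of 8.06. At chr7:143329562-143329725 it was 5.20, with an H4WT peak of 4.58. These peaks are counted above, and the part of the bead background in them was not tested.

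**Figure D5:**
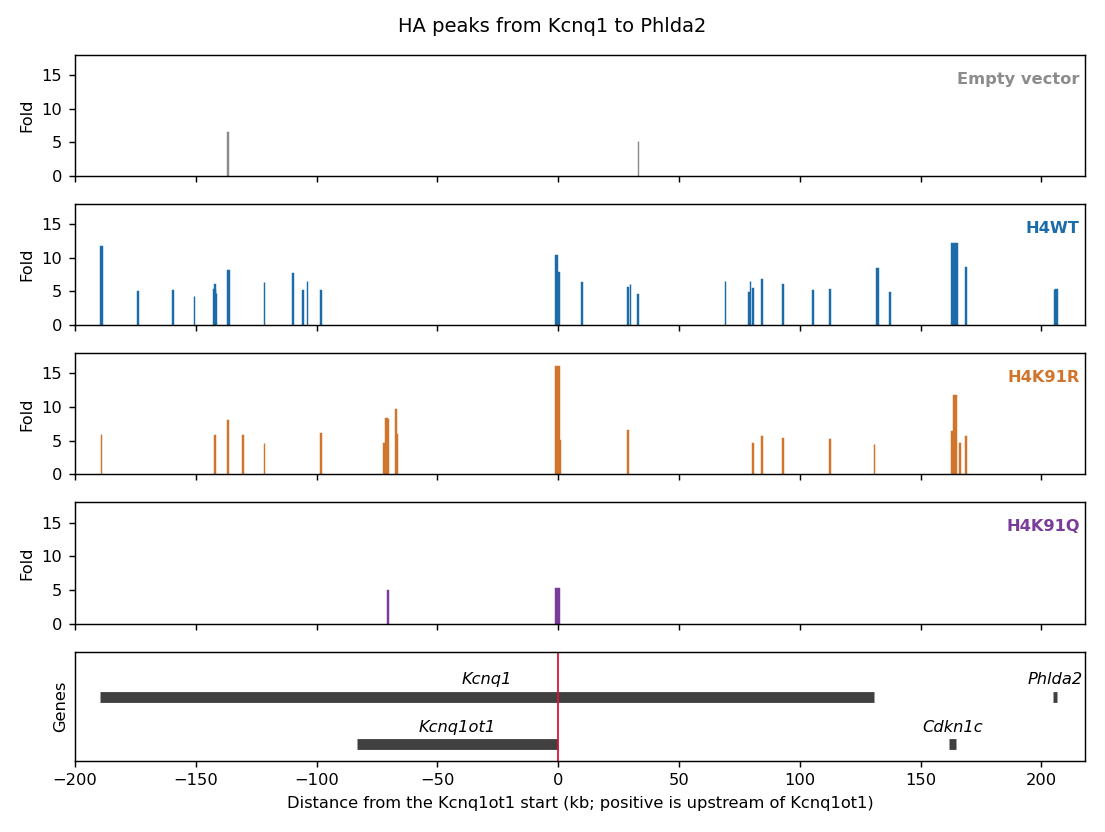
Peaks from Kcnq1 to Phlda2 in each list with the authors' fold as height, by distance from the Kcnq1ot1 start in kb. Bars have a minimum drawn width, so peaks look wider than they are, and only peaks within 10 kb of a member are drawn. All 3 tagged lists have peaks at the Kcnq1ot1 start, H4WT and H4K91R on both flanks of Kcnq1ot1, and H4K91R and H4K91Q toward its far end. H4K91Q has no peak besides these 2 in the windows drawn.

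Cdkn1c (gene ID 12577, chr7:143458339-143461059) had 0 empty-vector, 2 H4WT, 4 H4K91R and 0 H4K91Q peaks. With lists of equal length H4WT and H4K91R had 2 each. The H4WT peak over the gene, chr7:143459108-143461500, was 2393 bp wide, with a fold of 12.2 (rank 894, top 1.29%). H4K91R covered the same place with chr7:143459060-143459870 (fold 6.49) and chr7:143460007-143461383 (fold 11.7, rank 1141, top 2.32%). Outside the gene, chr7:143464808-143465497 had an H4WT fold of 8.67 and chr7:143464801-143465203 an H4K91R fold of 5.70. An H4K91R peak at chr7:143462471-143462685 with 4.66 had no H4WT peak over it. Cdkn1c thus ranked high in the lists of H4WT and H4K91R and was missing from that of H4K91Q.

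Phlda2 (gene ID 22113, chr7:143501545-143503145, minus strand, start at 143502524) had peaks of H4WT alone, and with lists of equal length it had none. The deposited peaks were chr7:143501636-143501888 with a fold of 5.34 and chr7:143502344-143502823 with 5.39 (rank 39360, top 56.9%). The second lay over the start and over the promoter printed above, with its TATAAA. Both were below the median fold of the H4WT list, 5.70. Phlda2 had the weakest peaks of the members in that list when members are ordered by their highest fold.

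Peaks of the tagged lists that touched were joined into 65 places over the members. There were 27 places of H4WT alone (41.5%), 16 shared by H4WT and H4K91R (24.6%), 14 of H4K91R alone (21.5%), 4 shared by both mutants (6.15%), 3 in all 3 lists (4.62%) and 1 of H4K91Q alone (1.54%). Over the genome, 94714 places divided as 44.8%, 23.2%, 17.7%, 4.75%, 2.62% and 6.81% in that order. The 3 places of all lists were the Kcnq1ot1 start and the 2 places upstream of Igf2. The 4 places of both mutants without H4WT were 3 upstream of H19 and 1 toward the far end of Kcnq1ot1. Of the 8 H4K91Q member peaks, 7 (87.5%) overlapped an H4K91R peak and 3 (37.5%) an H4WT peak, beside 54.0% and 19.5% of the whole H4K91Q list. Of the 39 H4K91R member peaks, 7 (17.9%) overlapped an H4K91Q peak and 21 (53.8%) an H4WT peak, beside 15.8% and 55.2%. Of the 49 H4WT member peaks, 22 (44.9%) overlapped an H4K91R peak and 4 (8.16%) an H4K91Q peak, beside 38.5% and 4.14%.

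The 16 genes between and beside the members, from Lsp1 to Dhcr7, were counted in the same way. H4WT peaks were found at 14 of them (not at Tspan32 or Tssc4), H4K91R peaks at 15 (not at Tspan32), empty-vector peaks at 3 and an H4K91Q peak at 1, Ins2. In 567.436 kb there were 5 empty-vector, 51 H4WT, 27 H4K91R and 1 H4K91Q peaks. Per 100 kb this was 0.881, 8.99, 4.76 and 0.176 in the same order, beside 0.677, 11.1, 8.80 and 1.81 at the members. All genes had 0.151, 3.70, 2.38 and 0.495. The H4K91Q peak counted at Ins2 was the outer one upstream of Igf2, so outside the member windows the neighbours had 46 H4WT, 25 H4K91R and 0 H4K91Q peaks. Ascl2, a transcription factor gene of the placental lineage, had 5 H4WT and 3 H4K91R peaks, the highest H4WT density of the neighbours at 22.3 per 100 kb. In 3 other imprinted domains, H4K91Q density per 100 kb was 0.959 around Peg3, 0.345 around Snrpn and 1.94 around Dlk1, beside 1.81 at the members. H4WT density was 3.20, 2.07 and 12.1 there, beside 11.1, and H4K91R density 2.88, 1.90 and 8.74, beside 8.80. By density the members were thus close to the Dlk1 domain in all 3 tagged lists, and no test of these differences was possible. Density depends on window length, and the Snrpn window alone spans 487.683 kb. The highest H4K91Q fold around Peg3, at chr7:6727842-6730971, ranked 165 in its list. At Snrpn it was chr7:60003712-60005206 with rank 1508. Both places had H4WT and H4K91R peaks too. The highest H4K91Q member peak ranked 2665, so H4K91Q peaks of such rank were not particular to the members. That member peak, upstream of H19, had no H4WT peak over it. Places of both mutants without H4WT were not counted in these other domains.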

How the data were processed

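HA ChIP-seq peak lists of 4 pulldowns from mouse embryonic stem cells were used, 1 library per group, with groups from the sample titles. The submitters' processing notes name MACS2 and mm10. By the deposited peak names, calling was done per pulldown with the matching input as control. The sources used here give no aligner, MACS2 version or q threshold. In 100% of peaks the deposited score was −log10 q times 10, without its decimals. The authors' fold, a ratio to background at the summit, ranked peaks within a list. The authors' −log10 q filtered peaks, and the deposited −log10 p was not used. The lowest −log10 q was 1.77, 1.40, 1.58 and 1.40 in the empty-vector, H4WT, H4K91R and H4K91Q lists. A deeper library passes weaker places, so counts can move with depth.

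Genes came from RefSeq for GRCm38.p6, the same build as mm10, and starts from its promoter table. An overlap needed at least 1 bp. Python 3.11.15, pandas 2.3.3 and numpy 2.4.6 were used, and the overlap steps were tested on simulated peaks (100% of 5000 planted overlaps found). Members and lists were chosen with earlier results of these data known. The text names every peak of a member with 3 or fewer peaks in a list, otherwise the 3 of highest fold and those in the start and control windows, and a few others chosen after their values were seen. The alternatives changed the flank, the windows, the q threshold, the list length, the overlap minimum, the use of summits and the treatment of peaks that overlap the empty vector.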

Additional observations from a re-analysis of the deposited data

How the results depend on the processing

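Without a flank, H4K91Q had 2 member peaks and 2 members with a peak, and the empty vector 1 such member. A flank of 20 kb gave 5 empty-vector peaks. Requiring a −log10 q of at least 5 left the empty vector 1 member peak at 1 member and H4K91R 1 peak at the Kcnq1ot1 start. With lists of equal length, 9 H4WT and 16 H4K91R member peaks remained, each with 1 peak at the Kcnq1ot1 start, and 7 H4K91R peaks overlapped H4WT. These settings hold fewer peaks by construction. At 2 to 4 kb upstream of H19, H4K91Q had 2 peaks, and at 0 to 10 kb H4WT had 1 and H4K91R 5. Within 500 bp of a start, H4K91Q peaks were at 1 member. The other 99 of the recomputed main counts stayed within 1.5 times their value. There are no replicates or read numbers, so differences in peak number between lists cannot be told apart from depth.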

Other observations

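Between the windows of Cdkn1c and Phlda2, 20.485 kb that belong to neither, there were 4 H4WT peaks with folds of up to 7.62, 1 H4K91R peak with 4.84 and no H4K91Q or empty-vector peak. The microRNA gene Mir483 inside Igf2 (chr7:142654924-142654996) was 319 bp from the nearest H4WT peak, 1924 bp from the nearest H4K91R peak and 12689 bp from the nearest H4K91Q peak. The 300-base windows of the first and the most downstream Igf2 starts overlapped no peak of any list, and that of the third start, with 24 CpG dinucleotides, overlapped H4WT and H4K91R peaks.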
